A study of Mus musculus with 9 samples.

Results

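The 10 proliferation genes described here are *Cdk1*, *Ccnb1*, *Ccnb2*, *Ccna2*, *Top2a*, *Mki67*, *Birc5*, *Rrm2*, *Ccnd1* and *Cdkn1a*, 10 of the 52636 genes in a table of read counts from mouse left ventricle. They were chosen by name with earlier results of these data known, and they are set out across libraries chosen by their measured level of *Vdac2*, so what follows for those libraries is a description and not a test. All 10 passed the filter on low counts in the fit used below, which asks for 0.308 CPM of the library total in at least 4 libraries, and *Ccnb1* passed it only through libraries 1, 3, 5, 7 and 9. The libraries came from left ventricular tissue of 16-week-old C57BL6J mice, 5 labelled VDAC2 WT (libraries 1 to 5) and 4 labelled VDAC2 KO (libraries 6 to 9). The study crossed mice carrying the *Vdac2* flox/flox allele with an αMHC-Cre transgene, whose promoter drives Cre in cardiomyocytes, so fibroblasts, endothelial cells and leukocytes of a KO ventricle keep the gene. Its WT mice were littermates with either the flox allele or Cre, its methods state that both sexes were used, and no mouse received a treatment in the labels. In these libraries sex went with the label, as given below. The study compared WT with KO to learn how loss of VDAC2, a porin of the outer mitochondrial membrane, alters gene expression in the ventricle. Nothing in the labels says whether each library came from its own mouse, so p-values measure only the spread between libraries.

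A cell that divides passes from G1 into S phase, where DNA is copied, and then through G2 into mitosis. D-type cyclins with CDK4 and CDK6 act in G1, cyclin A2 in S and G2, and cyclins B1 and B2 with CDK1 drive entry into mitosis. The mRNAs of the S, G2 and mitosis genes are made in cycling cells and kept very low in resting ones, while *Ccnd1* and *Cdkn1a* are also transcribed in cells that do not cycle. Adult cardiomyocytes rarely divide, and in an adult ventricle fibroblasts, endothelial cells and macrophages are the cells known to cycle more readily. In bulk tissue a larger share of cycling cells and more RNA per cycling cell cannot be told apart.

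Promoters of G2 and mitosis genes are known for repeated CCAAT boxes, bound by NF-Y, and for a cell cycle genes homology region (CHR), bound by the DREAM and MuvB complexes. RefSeq promoter sequences (GRCm38.p6, 250 bases before to 50 after the annotated start, 32851 records) were matched to 8 of the 10 genes, and no entry was matched to *Ccna2* or *Ccnd1*. Both strands were searched for CCAAT and for CHR words. The first CHR word was TTTGAA, the best known form of the element. A second form that was searched for in the same windows was TTCGAA, which reads the same on both strands. The third form, which likewise reads the same on both strands, was TTTAAA. The following stretches are from *Top2a*, *Cdk1* and *Mki67*, which did not overlap between the sets of libraries described below. *Ccnb2* is also shown, which overlapped between the sets but not within either lane. *Ccnb1* and *Birc5* met these conditions too and are not printed. They held 2 and 0 CCAAT in their windows, in that order, and each printed gene held 3 or more. The printed stretches run 5′ to 3′ on the gene's strand and end upstream of the annotated start. Capitals mark each CCAAT in either orientation, each CHR word in either orientation and, in *Cdk1* alone, one E2F word, TTTCGCGC.
Top2a, chr11:99024190-99024349, minus strand: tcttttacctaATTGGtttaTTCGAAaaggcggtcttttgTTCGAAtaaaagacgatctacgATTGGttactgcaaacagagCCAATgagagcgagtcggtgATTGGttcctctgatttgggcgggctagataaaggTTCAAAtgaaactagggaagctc
Cdk1, chr10:69352939-69353058, minus strand: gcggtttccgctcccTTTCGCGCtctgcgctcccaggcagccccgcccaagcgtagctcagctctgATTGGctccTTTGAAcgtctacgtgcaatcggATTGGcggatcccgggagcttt
Mki67, chr7:135716380-135716559, minus strand: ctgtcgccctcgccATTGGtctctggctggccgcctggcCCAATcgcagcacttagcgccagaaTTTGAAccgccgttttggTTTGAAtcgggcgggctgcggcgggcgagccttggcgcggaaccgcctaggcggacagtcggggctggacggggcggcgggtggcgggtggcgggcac
Ccnb2, chr9:70421555-70421674, minus strand: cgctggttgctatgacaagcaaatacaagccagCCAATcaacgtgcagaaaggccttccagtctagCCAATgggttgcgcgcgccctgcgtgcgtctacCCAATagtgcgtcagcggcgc

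In the whole 300-base windows, CCAAT was found 6 times at *Top2a*, 3 times each at *Cdk1*, *Mki67* and *Ccnb2*, 2 times at *Ccnb1*, once at *Rrm2*, and not at *Birc5* or *Cdkn1a*. A CHR word was found 4 times at *Top2a*, 2 times each at *Cdk1*, *Mki67* and *Ccnb2*, once each at *Ccnb1*, *Birc5* and *Rrm2*, and not at *Cdkn1a*. At least 2 CCAAT together with a CHR word were present in 5 of the 8 genes, *Cdk1*, *Mki67*, *Top2a*, *Ccnb1* and *Ccnb2*, and in 3.33% of all 32851 promoters. CCAAT alone was in 37.41% of them and a CHR word in 28.79%, so neither is rare by itself. Counted by gene, the pair was also in 17 of the 38 genes with a promoter in a wider list of G2 and mitosis genes (44.7%), in 6 of 30 genes of a list for G1/S and replication (20.0%), and in 3.86% of 27025 genes. E2F words were searched as TTTCGCGC as well as TTTGGCGC, the variant TTTCCCGC and lastly TTTGCCGC. By gene, they lay in 14 of those 30 G1/S genes, 2 of the 38 G2 and mitosis genes and 2.6% of the 27025 genes. By record, they lay in 2.26% of all promoters. These matches describe letters in a window and do not show that a factor binds there.

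Between 27345052 and 44673988 reads were counted per library, and a floor of 3 reads, which covers counting error only, lay between 0.0693 and 0.114 CPM. CPM are reads per 1000000 reads of a library, after edgeR's TMM method adjusted the size of each library. *Vdac2*, the deleted gene (chromosome 14, 21825238 to 21845879), was at 20.2, 366, 58.5, 365 and 21.3 CPM in the labelled WT libraries, given in the order 1 to 5. The labelled KO libraries 6 to 9 held 384, 20.5, 421 and 19.1 CPM of it. Its level therefore goes against the label in several libraries, and the words labelled WT and labelled KO are used for the groups. Libraries 1, 5, 7 and 9, with *Vdac2* under 100 CPM, are called the low-*Vdac2* libraries, and libraries 2, 4, 6 and 8, with *Vdac2* over 300 CPM, the high-*Vdac2* libraries. Each set holds 2 libraries of each label. Library 3, labelled WT with 58.5 CPM, stood apart from both and is given by itself. Lane 1 held every labelled WT library and lane 2 every labelled KO library by the lane tag in the sample descriptions, so the label cannot be told apart from the lane. Nor can it be told apart from sex. *Xist*, the RNA that silences an X chromosome in female cells, was at 0.0847 ± 0.0456 CPM (SD, n = 5) in labelled WT and 471 ± 110 CPM (SD, n = 4) in labelled KO libraries, and the Y-linked *Ddx3y* at 155 ± 18 CPM in labelled WT and under the floor in labelled KO. Each *Vdac2* set holds 2 libraries from each lane. Of 10 cardiomyocyte markers, 9 were lowest in library 3, as were 37.4% of all tested genes, and *Nkx2-5*, a cardiac transcription factor named after its values were seen, lay there at 19.4 CPM within the range of the other libraries (17.1 to 24.1 CPM). The sum of the 10 was 16094 CPM in library 3, while the other 8 libraries ran from 55997 to 76838 CPM.

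*Cdk1*, the kinase that starts mitosis, and the genes of its partner cyclins were low in these hearts and highest in library 3. Among the other libraries, *Cdk1*, *Ccna2* and *Ccnb1* were higher in all low-*Vdac2* than in all high-*Vdac2* libraries, and *Ccnb2* overlapped. *Cdk1* (ENSMUSG00000019942, chromosome 10, 69335146 to 69352938, GRCm38) was at 2.07, 2.32, 2.35 and 2.35 CPM in libraries 1, 5, 7 and 9. It was at 0.914, 1.37, 1.54 and 1.18 CPM in libraries 2, 4, 6 and 8, and at 37.5 CPM in library 3. The 4 low-*Vdac2* libraries lay close together, and the lowest of them was 1.34 times the highest of the high-*Vdac2* libraries. Library 3 was 15.9 times the highest of the other 8.

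*Ccna2*, which encodes cyclin A2 (chromosome 3, 36564865 to 36572150), was at 4.20, 4.58, 5.11 and 4.99 CPM in libraries 1, 5, 7 and 9. In libraries 2, 4, 6 and 8 it was at 1.79, 3.23, 2.55 and 1.88 CPM, and in library 3 at 65.9 CPM. The sets did not overlap, the lowest low-*Vdac2* value being 1.30 times the highest high-*Vdac2* value. *Ccna2* overlaps *Exosc9*, which shares 11.4% of its 50-base exon stretches.

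*Ccnb1*, for cyclin B1 (chromosome 13, 100778650 to 100786570), was the lowest of the 10 per kilobase of exon. It was at 0.328, 0.671, 0.422 and 0.577 CPM in libraries 1, 5, 7 and 9 and at 0.293, 0.228, 0.212 and 0.206 CPM in libraries 2, 4, 6 and 8, against 9.09 CPM in library 3. The sets did not overlap, but the gap rests on few reads, 10 in library 1 and 8 in library 2. *Ccnb1* also shares 23.4% of its 50-base exon stretches with 6 other genes, most of them pseudogenes, so its level is uncertain. *Ccnb2*, for cyclin B2 (chromosome 9, 70407692 to 70421547), shares none. It was at 1.28, 1.68, 1.45 and 1.62 CPM in libraries 1, 5, 7 and 9, at 1.06, 0.989, 1.01 and 1.38 CPM in libraries 2, 4, 6 and 8, and at 20.6 CPM in library 3. Its sets overlapped, because library 8 lay above library 1.

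**Figure D1:**
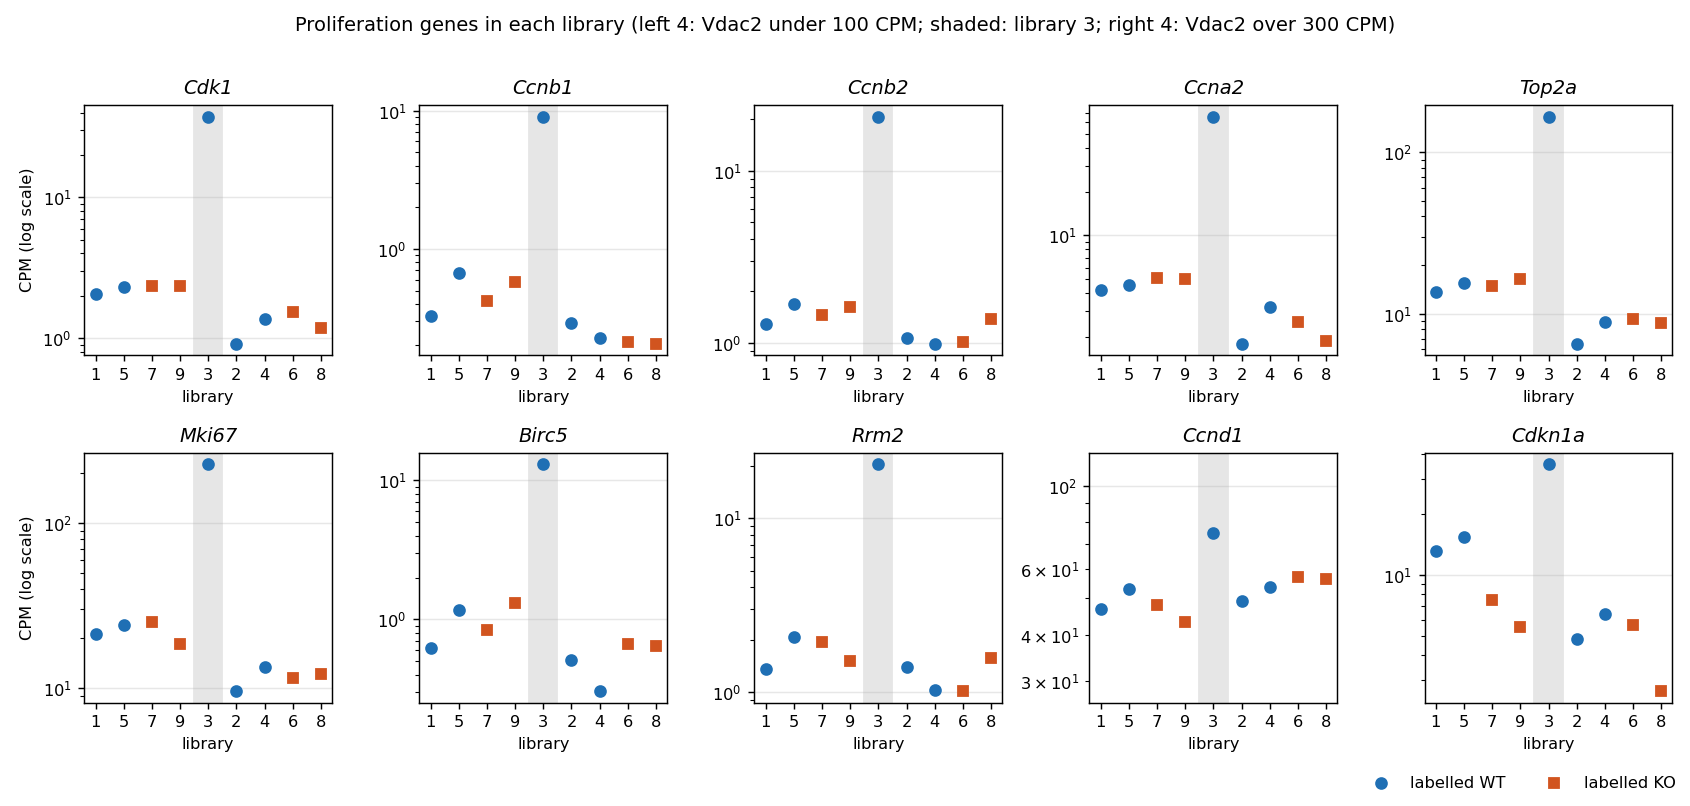
Level of each of the 10 proliferation genes in each library, as CPM on a log scale whose range differs between panels, with libraries 1, 5, 7 and 9 on the left, library 3 shaded and libraries 2, 4, 6 and 8 on the right. Each point is 1 library (circles labelled WT, squares labelled KO), library 3 is highest in all 10 panels, and the left points lie above the right points for *Cdk1*, *Ccnb1*, *Ccna2*, *Top2a* and *Mki67*.

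*Top2a* encodes the topoisomerase that untangles DNA before chromosomes separate, and *Mki67* the Ki-67 protein that coats mitotic chromosomes and is the usual marker of cycling cells. *Top2a* (chromosome 11, 98992943 to 99024189) was at 13.5, 15.6, 14.8 and 16.3 CPM in libraries 1, 5, 7 and 9. In libraries 2, 4, 6 and 8 it was at 6.51, 8.90, 9.28 and 8.71 CPM, and in library 3 at 167 CPM. It had the widest gap between the sets of the 10 genes, the lowest low-*Vdac2* value being 1.46 times the highest high-*Vdac2* value. *Mki67* (chromosome 7, 135689784 to 135716361) was at 21.2, 24.1, 25.0 and 18.4 CPM in libraries 1, 5, 7 and 9 and at 9.58, 13.4, 11.6 and 12.2 CPM in libraries 2, 4, 6 and 8. Its sets did not overlap, and the ratio of the nearest values was 1.38. In library 3 *Mki67* was at 227 CPM, 9.09 times the highest other library.

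*Birc5*, for survivin of the chromosomal passenger complex (chromosome 11, 117849251 to 117855743), was at 0.624, 1.16, 0.844 and 1.32 CPM in libraries 1, 5, 7 and 9. In libraries 2, 4, 6 and 8 it was at 0.512, 0.304, 0.663 and 0.647 CPM, and in library 3 at 13.1 CPM. Its sets overlapped through library 1, which lay between libraries 2 and 8. *Rrm2*, for the ribonucleotide reductase subunit that makes deoxynucleotides in S phase (chromosome 12, 24708241 to 24714146), was at 1.35, 2.07, 1.92 and 1.5 CPM in libraries 1, 5, 7 and 9. It was at 1.39, 1.03, 1.01 and 1.56 CPM in libraries 2, 4, 6 and 8, so the sets overlapped, and at 20.6 CPM in library 3. *Rrm2* overlapped within lane 1 and within lane 2 as well, whereas *Ccnb2* and *Birc5* did not overlap within either lane.

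*Ccnd1*, the G1 cyclin D1 (chromosome 7, 144929931 to 144939925), did not share this order. It was at 47.0, 52.9, 47.9 and 43.3 CPM in libraries 1, 5, 7 and 9 and at 49.1, 53.6, 57.0 and 56.4 CPM in libraries 2, 4, 6 and 8, with 3 of the 4 low-*Vdac2* libraries below all high-*Vdac2* libraries. In library 3 it was at 74.5 CPM, 1.31 times the highest other library. Per kilobase of exon its median over the 8 libraries other than library 3 was 10.8 CPM, the highest of the 10 genes, followed by *Cdkn1a* at 1.70, *Mki67* at 1.58, *Top2a* at 1.27, *Ccna2* at 0.910, *Ccnb2* at 0.870, *Rrm2* at 0.521, *Cdk1* at 0.365, *Birc5* at 0.193 and *Ccnb1* at 0.0736 CPM per kilobase. Below *Ccnd1*, the ranges of neighbours in this order overlapped throughout. *Ccnd1* overlaps *LTO1*, which shares 21.6% of its 50-base exon stretches, so part of its level could be the neighbour's.

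*Cdkn1a* encodes p21, an inhibitor of cyclin-dependent kinases and a known target of p53. RefSeq lists 2 promoter records for it, and neither held CCAAT or a CHR word. The upstream record is printed in part because it held a match to the p53 response element consensus (2 half-sites of 10 bases with a spacer of up to 13), present in 24 of the 32851 promoters (0.07%) and not in the second *Cdkn1a* record. The capitals mark both half-sites of this match and the bases between them. The 10 bases directly after the capitals miss the half-site pattern at their first base alone, so they were not marked. The match describes letters and does not show which bases p53 binds.
Cdkn1a, chr17:29090886-29090975, plus strand: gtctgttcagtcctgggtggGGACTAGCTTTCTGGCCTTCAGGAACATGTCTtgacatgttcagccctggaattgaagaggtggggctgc
*Cdkn1a* (chromosome 17, 29090976 to 29100727) was at 13.2, 15.4, 7.49 and 5.49 CPM in libraries 1, 5, 7 and 9. In libraries 2, 4, 6 and 8 it was at 4.83, 6.43, 5.65 and 2.65 CPM, and in library 3 at 35.5 CPM. Within lane 1 the low-*Vdac2* libraries lay above the high-*Vdac2* libraries, while within lane 2 library 9 lay below library 6. By label it ran from 4.83 to 35.5 CPM in the labelled WT and from 2.65 to 7.49 CPM in the labelled KO libraries, which overlap. Its exons share 8.49% of their 50-base stretches with other genes.

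In all, the low-*Vdac2* libraries lay above all high-*Vdac2* libraries for 5 of the 10 genes (*Cdk1*, *Mki67*, *Top2a*, *Ccnb1* and *Ccna2*), below them for 0, and the ranges overlapped for 5. Over the 16322 genes tested, 7.16% lay wholly above and 4.93% wholly below, and since the genes were chosen with this contrast in view nothing is read from the difference. Of the 5, *Ccnb1* was under the filter's 0.308 CPM in every high-*Vdac2* library, so it could be counted among the tested genes only because it was higher elsewhere. Within both lanes, 7 of the 10 lay above (the 5 plus *Ccnb2* and *Birc5*), against 11.3% of all genes, and 0 lay below, against 8.58%. The same 5 genes were found with other size factors and with plain CPM. Just outside this count, *Ccnb2* missed by the order of libraries 1 and 8 (1.28 against 1.38 CPM), and just inside it *Ccnb1* passed by libraries 1 and 2 (0.328 against 0.293 CPM). Library 3 was above every other library for 10 of 10 genes, against 37.7% of all genes. Among the labelled WT libraries alone, its gap above the next library passed Dixon's 95% critical value for 9 of the 10 and for 22.6% of all genes. Over the 8 other libraries, log2 CPM of *Cdk1* followed that of *Top2a* (Pearson r = 0.985) and *Ccna2* (r = 0.958), and *Ccnd1* had a negative r with each of the other 9. These r values describe 8 libraries that share their order of *Vdac2*.

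The comparison the labels give is labelled KO against labelled WT, tested in edgeR by a quasi-likelihood F-test, with p-values adjusted over all 16322 genes by the Benjamini-Hochberg method. Since each *Vdac2* set holds 2 libraries of each label, this test cannot show whether a gene differs between the sets. None of the 10 proliferation genes passed an adjusted p under 0.05, which 0.0551% of all genes did (9 genes). Of those 9, *Ddx3y*, *Kdm5d*, *Eif2s3y* and *Uty* are Y-linked and *Xist* and *Kdm6a* X-linked, named here because sex and label coincide. With an unadjusted p under 0.05 there was 1 of 10, *Cdkn1a*, against 6.11% of all genes. DESeq2, whose filter on outlying counts left 8 of the 10 without a p, called neither of the other two (*Ccnd1* and *Cdkn1a*) after adjustment, and *Cdkn1a* had an unadjusted p under 0.05. Of the 15796 genes to which DESeq2 gave a p, 0.443% passed after adjustment and 8.43% without it. The point estimates were all below 0. *Cdk1* was at 8.84 ± 16.1 CPM (SD, n = 5) in labelled WT and 1.85 ± 0.592 CPM (SD, n = 4) in labelled KO libraries, a log2 fold change of -2.26 (SE 1.15, edgeR adjusted p = 0.68). *Mki67* was at 59.1 ± 94.2 against 16.8 ± 6.30 CPM, with a log2 fold change of -1.82 (SE 0.96). The SD of labelled WT was larger than its mean for both genes, and for *Top2a*, *Ccnb1*, *Ccnb2*, *Ccna2*, *Birc5* and *Rrm2* as well.

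Without library 3 the estimates fell away. Each label then held 2 low-*Vdac2* and 2 high-*Vdac2* libraries. A difference that follows *Vdac2* would largely cancel between such groups, so these estimates cannot show one. *Cdk1* had a log2 fold change of 0.14 (SE 0.31), *Top2a* of 0.13 and *Mki67* of -0.030, and 7 of the 10 changed sign. On the log2 scale, though not in CPM, *Cdkn1a* kept the larger part of its difference. It was at 15.1 ± 12.2 CPM (SD, n = 5) in the labelled WT libraries and 5.32 ± 2.00 CPM (SD, n = 4) in the labelled KO libraries. Its log2 fold change was -1.5 (SE 0.58, edgeR adjusted p = 0.68) with all libraries and -0.91 (SE 0.42, edgeR adjusted p = 0.45) without library 3, where its unadjusted p was above 0.05 too. *Ccnd1* was at 55.4 ± 11 against 51.2 ± 6.67 CPM and had a log2 fold change of -0.12 (SE 0.15, edgeR adjusted p = 0.78).

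**Figure D2:**
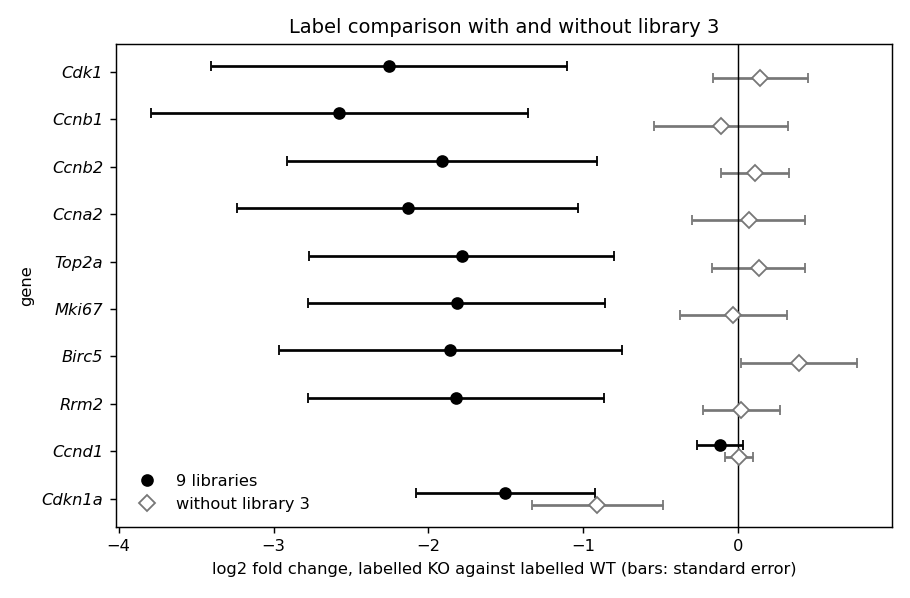
Log2 fold change of labelled KO against labelled WT for each of the 10 genes from edgeR, with all 9 libraries (filled circles) and without library 3 (open diamonds); bars are 1 standard error. Between -1.78 and -2.57 for the 8 S, G2 and mitosis genes with all libraries, the estimates lie between -0.11 and 0.39 without library 3, while *Cdkn1a* stays below 0 in both.

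Other genes of the cycle were read from lists that do not hold the 10 genes. Whether each listed mRNA is confined to cycling cells in this tissue was not tested. The lists were chosen with earlier results of these data known, and their genes share the same libraries. Nothing is therefore read from the difference between a list's share and that of all tested genes. In the list of G2 and mitosis genes (kinesins, centromere and spindle proteins, the condensin subunits and their regulators), 44 of 47 matched genes were tested. The low-*Vdac2* libraries lay above all high-*Vdac2* libraries for 28 of them, below for 1 and overlapped for 15, and within both lanes 33 lay above. Of all tested genes 7.16% lay above, 4.93% below and 11.3% above within both lanes. Its most abundant gene, *Cenpf*, for a centromere protein that gathers in G2, was at 213, 179, 230 and 215 CPM in libraries 1, 5, 7 and 9 and at 92.3, 91.9, 137 and 103 CPM in libraries 2, 4, 6 and 8. In library 3, however, *Cenpf* was lowest of all, at 53.9 CPM, unlike each of the 10 proliferation genes. *Smc4*, a condensin subunit, ran from 36.8 to 43.5 CPM in the low-*Vdac2* and from 28.9 to 33.5 CPM in the high-*Vdac2* libraries, with 97.9 CPM in library 3. *Pttg1*, for securin, overlapped between the sets (66.0 to 82.7 against 66.4 to 74.0 CPM) and was at 23.6 CPM in library 3. Chosen after their values were seen, *Kif2c*, a kinesin of the spindle, was at 0.722 to 0.844 CPM in the low-*Vdac2* against 0.265 to 0.418 CPM in the high-*Vdac2* libraries, and *Cenpa*, the histone variant of centromeres, was the 1 gene wholly lower, at 17.3 to 22.4 against 23.0 to 27.5 CPM.

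In the list of G1/S and replication genes (MCM helicase subunits, replication factors, nucleotide synthesis and E2F factors), 37 were tested, and the low-*Vdac2* libraries lay above for 6, below for 1 and overlapped for 30, against 7.16% above and 4.93% below over all tested genes. The 6 were *Mcm3*, *Mcm6*, *E2f1*, *Cdc6*, *Chaf1a* and *Hells*. The 3 most abundant overlapped. *Rrm1*, the large subunit of ribonucleotide reductase, ran from 25.1 to 29.2 CPM in the low-*Vdac2* and from 21.8 to 26.1 CPM in the high-*Vdac2* libraries, with 106 CPM in library 3. *Dnmt1*, the maintenance DNA methyltransferase, ran from 25.0 to 28.3 against 22.1 to 27.1 CPM, with 77.6 CPM in library 3. *Gmnn*, for geminin, which blocks renewed licensing of origins, ran from 25.7 to 32.1 against 28.4 to 32.8 CPM and was lowest in library 3 at 15.6 CPM. Library 3 lay above every other library for 35 of these 37 genes and for 41 of the 44 G2 and mitosis genes, against 37.7% of all tested genes. The difference between the lists in the share wholly above was not tested.

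**Figure D3:**
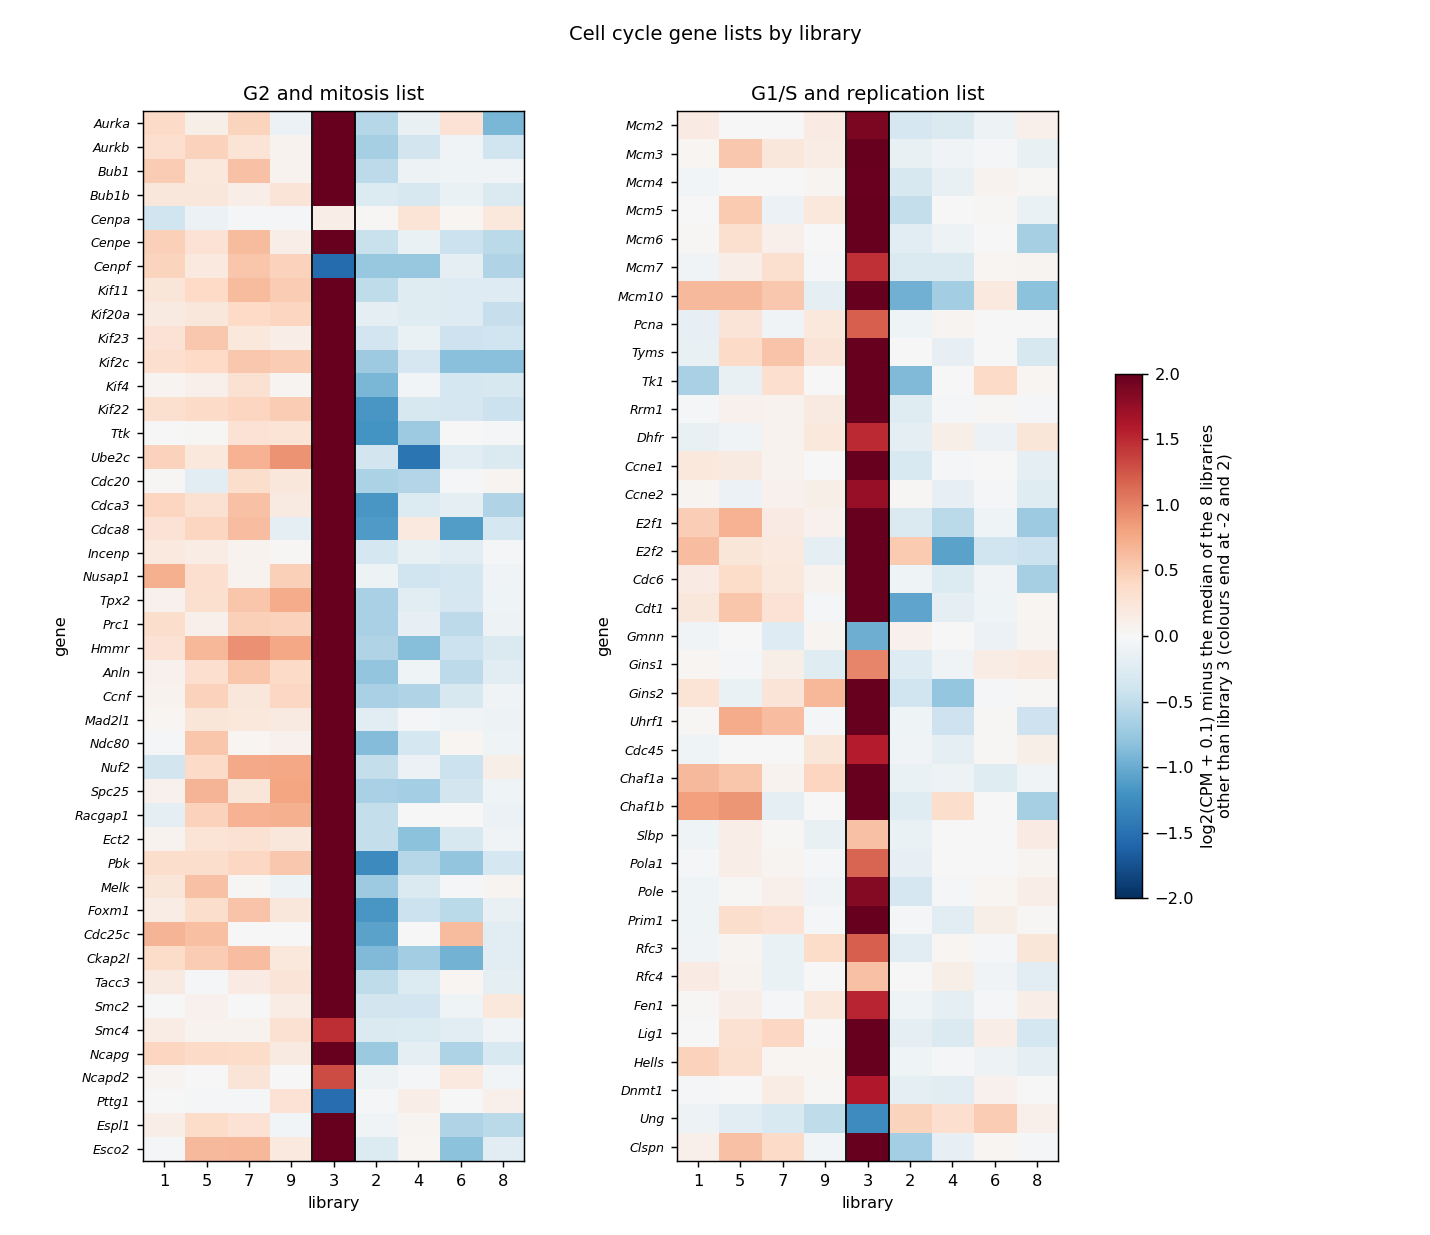
Level of each tested gene of the G2 and mitosis list (left, 44 genes) and the G1/S and replication list (right, 37 genes) in each library, as log2(CPM + 0.1) minus the gene's median over the 8 libraries other than library 3. Colours end at -2 and 2, red is above the median and blue below, and library 3, framed, is red in nearly all rows of both panels, *Cenpf*, *Pttg1*, *Gmnn* and *Ung* being blue.

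Of the G1 cyclins, kinases and their regulators, 21 were tested, with 3 wholly above in the low-*Vdac2* libraries (*Cdk6*, *Wee1* and *Myc*), 1 wholly below (*Mycn*) and 17 overlapping. With 7.16% above and 4.93% below over all tested genes, these small counts are not read as a result about the list. *Ccnd2*, for cyclin D2, was at 121 to 163 CPM against 102 to 132 CPM, *Rbl2*, for the p130 pocket protein of resting cells, at 69.6 to 79.5 against 69.1 to 75.7 CPM, and *Cdk4* at 41.2 to 46.2 against 39.6 to 44.4 CPM. All 3 overlapped. Of the other inhibitors of cyclin-dependent kinases, 6 were tested, and only *Cdkn3* lay wholly above. It too was under 0.308 CPM in every high-*Vdac2* library and passed the filter only through the others, so its count says nothing about the list. *Cdkn1b*, for p27, was at 38.9 to 53.6 against 43.4 to 51.1 CPM, *Cdkn1c*, for p57, at 13.2 to 17.8 against 14.3 to 20.7 CPM, and *Cdkn2c*, for p18, at 10.6 to 14.7 against 9.43 to 11.7 CPM. In library 3 *Cdkn1c* was at 2.32 CPM, the lowest value of that gene.

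Of 28 other p53 targets, read because *Cdkn1a* is one, 7 lay wholly above in the low-*Vdac2* libraries (*Sesn2*, *Phlda3*, *Trp53inp1*, *Eda2r*, *Aen*, *Rps27l* and *Dcxr*), 0 below, and 21 overlapped, beside 7.16% above and 4.93% below over all tested genes. Its most abundant genes overlapped, *Ccng1*, for cyclin G1, at 1456 to 1803 against 1467 to 1606 CPM, *Sesn1* at 141 to 179 against 155 to 193 CPM, and *Perp* at 137 to 231 against 119 to 151 CPM. *Eda2r*, a receptor of the tumour necrosis factor family chosen after its values were seen, was at 12.4, 12.5, 14.2 and 13.4 CPM in libraries 1, 5, 7 and 9 and at 8.63, 8.45, 8.14 and 8.12 CPM in libraries 2, 4, 6 and 8, a gap present in both lanes that *Cdkn1a* did not have.

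**Figure D4:**
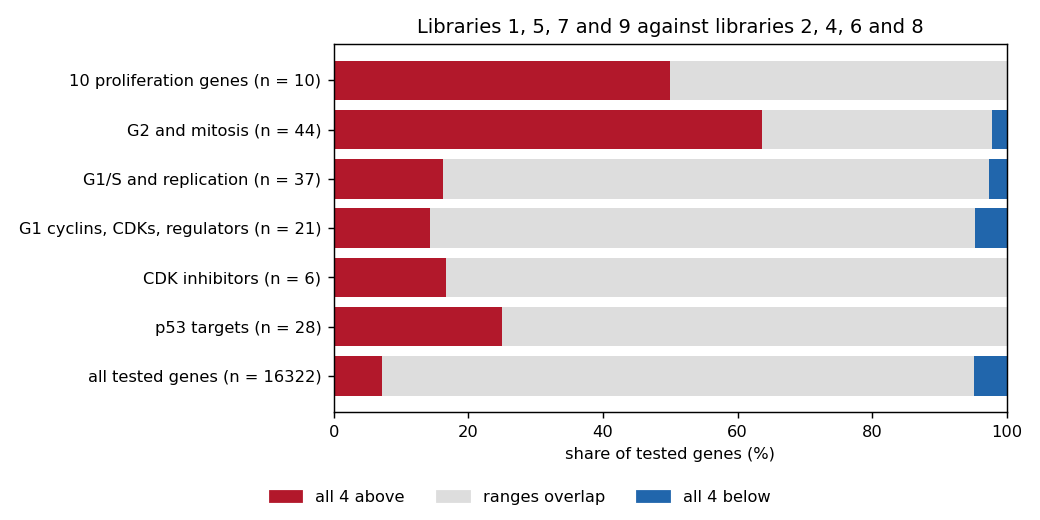
Share of the tested genes of each list, in percent, for which libraries 1, 5, 7 and 9 all lay above (red), overlapped with (grey) or all lay below (blue) libraries 2, 4, 6 and 8. The bar of the G2 and mitosis list is red for 28 of 44 genes, that of the 10 proliferation genes for 5 of 10, and that of all tested genes for 7.16%. Genes and lists were chosen with earlier results of these data known, so nothing is read from these differences.

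Between the labelled groups no gene of these 5 lists passed an adjusted p under 0.05 in the edgeR test, and 3 of 136 (*Chaf1b*, *Rb1* and *Cdkn1b*) had an unadjusted p under 0.05, against 6.11% of all genes. DESeq2 gave no p for 54 of the 136. Of the other 82 it called 0 after adjustment (0.443% of all genes), and 8 had a p under 0.05 without it (8.43%). The median log2 fold change was -1.75 over the G2 and mitosis list and -0.68 over the G1/S list, against -1.84 for the 10 proliferation genes and -0.018 for all genes. Without library 3 these medians were 0.10, 0.034, 0.045 and 0.0030. Each label then holds 2 libraries of each *Vdac2* set, so medians between the labels cannot show a difference that follows *Vdac2*. The medians of the other 3 lists, -0.16 for the G1 cyclins and regulators, -0.067 for the inhibitors and -0.058 for the p53 targets, lay closer to that of all genes.

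The summed levels of macrophage and fibroblast markers had the same order as the proliferation genes between the sets, though not each marker did. The 12 macrophage markers summed to 707 to 979 CPM in the low-*Vdac2* libraries, 442 to 637 CPM in the high-*Vdac2* libraries and 2156 CPM in library 3, and 7 of 12 lay wholly above in the low-*Vdac2* libraries. Library 3 was above every other library for 11 of the 12 and below for *Cd163*. Over all tested genes, 7.16% lay wholly above between the sets, and library 3 was highest for 37.7% and lowest for 37.4%. *Lyz2*, for lysozyme, was at 222 to 298 against 114 to 189 CPM, *Mrc1* at 112 to 193 against 76.7 to 118 CPM, and *Csf1r*, the receptor macrophages need to survive, at 67.4 to 93.3 against 50.1 to 71.4 CPM, the ranges of the latter pair overlapping. The 10 fibroblast markers summed to 1495 to 1547 CPM against 1019 to 1339 CPM, and to 5495 CPM in library 3. Of these 10, 4 lay wholly above in the low-*Vdac2* libraries, beside the 7.16% of all genes, and 6 overlapped. Of the 4, *Cthrc1* passed the filter only through the low-*Vdac2* libraries and library 3. Library 3 was above every other library for 7 of them (37.7% of all genes) and below for 2 (37.4%), *Dcn* and *Dpep1*, so its sum does not stand for each marker. In that list *Postn*, for periostin of activated fibroblasts, was at 124 to 316 against 59.4 to 97 CPM and at 2508 CPM in library 3, *Col1a2* at 115 to 153 against 67.6 to 90.4 CPM and at 1412 CPM, and *Dcn* overlapped at 737 to 935 against 560 to 819 CPM and was at 454 CPM in library 3. Between the labelled groups, where the proliferation genes had a median log2 fold change of -1.84 (0.045 without library 3), no marker of any cell type passed an adjusted p under 0.05 in the edgeR test. The medians were -0.85 for the 12 macrophage markers, of which 5 had an unadjusted p under 0.05 (6.11% of all genes), and -0.76 for the 10 fibroblast markers, of which 1 had. Without library 3 they were -0.37 and 0.074. The 6 mesothelial markers had a median of -1.88 and of -1.65 without library 3, and 5 of the 6 had an unadjusted p under 0.05. The 10 cardiomyocyte markers had a median of 0.43, and of 0.19 without library 3, and 0 of them had. The medians of the other 6 lists lay between -1.96, over the 3 of 8 neutrophil markers that were tested, and 0.64, over 7 of 10 lymphocyte markers. Without library 3 these medians were -1.94 and 0.41, in that order. The erythroid median was -0.64, and -0.74 without library 3. An unadjusted p under 0.05 was found for 2 of 3 neutrophil, 3 of 7 lymphocyte and 2 of 7 erythroid markers (6.11% of all genes). It was also found for 1 of 4 atrial markers and for 0 endothelial or mural markers. The part of any of these cell types in the levels of the proliferation genes was not tested.

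The 10 cardiomyocyte markers summed to 55997 to 65494 CPM in the low-*Vdac2* and 65877 to 76838 CPM in the high-*Vdac2* libraries, without overlap, although 9 of the 10 overlapped singly, as 87.9% of all tested genes did. *Myh6*, the adult myosin heavy chain, was at 15806 to 19601 against 18615 to 24713 CPM and at 1746 CPM in library 3. *Myl2*, the ventricular myosin light chain, was at 8597 to 10891 against 9271 to 11375 CPM and at 1984 CPM, and *Actc1*, cardiac actin, at 6050 to 8610 against 7374 to 9554 CPM and at 5371 CPM. The 10 endothelial markers summed to 776 to 941 against 909 to 1065 CPM, which overlap, and to 604 CPM in library 3. Singly, 2 of the 10 lay wholly below in the low-*Vdac2* libraries (4.93% of all genes), and 5 lay below within both lanes (8.58% of all genes). The 2 were *Pecam1* and *Flt1*, a VEGF receptor, and both passed narrowly. Their highest low-*Vdac2* against lowest high-*Vdac2* values were 173.50 against 173.56 CPM and 79.1 against 79.5 CPM. *Pecam1*, the adhesion molecule CD31, was at 150 to 173 against 174 to 189 CPM, *Kdr*, the VEGF receptor, at 120 to 176 against 173 to 217 CPM and *Tek*, the angiopoietin receptor, at 85.8 to 105 against 90.6 to 116 CPM.

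The sums of the other lists overlapped between the sets. The 9 mural markers summed to 1976 to 2194 against 1991 to 2237 CPM, with 1 of the 9 wholly below, beside 4.93% of all genes. *Rgs5* of pericytes was at 733 to 947 against 875 to 1059 CPM, *Abcc9* at 594 to 848 against 690 to 783 CPM and *Acta2*, smooth muscle actin, at 225 to 512 against 197 to 269 CPM. The 8 erythroid markers summed to 695 to 1373 against 592 to 2065 CPM, led by the globin genes *Hbb-bs* (509 to 988 against 434 to 1460 CPM), *Hbb-bt* and *Hba-a1*. Lymphocyte markers summed to at most 6.46 CPM, and their most abundant genes *Cd79b*, *Gzma* and *Ms4a1* each stayed at or under 1.48 CPM. Neutrophil markers summed to at most 27 CPM, in library 5, where *S100a9* was at 14.4 CPM. *S100a8* and *Cxcr2* came next, and *Ngp* was under the floor in every library. Mesothelial markers, led by *Upk3b*, *Msln* and *Wt1*, summed to 6.56 to 34.2 against 8.88 to 26.7 CPM. Atrial markers, led by *Nr2f2*, *Gja5* and *Myl4*, summed to 12.1 to 15.7 against 13.4 to 15.2 CPM, with *Sln* under the floor in every library.

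**Figure D5:**
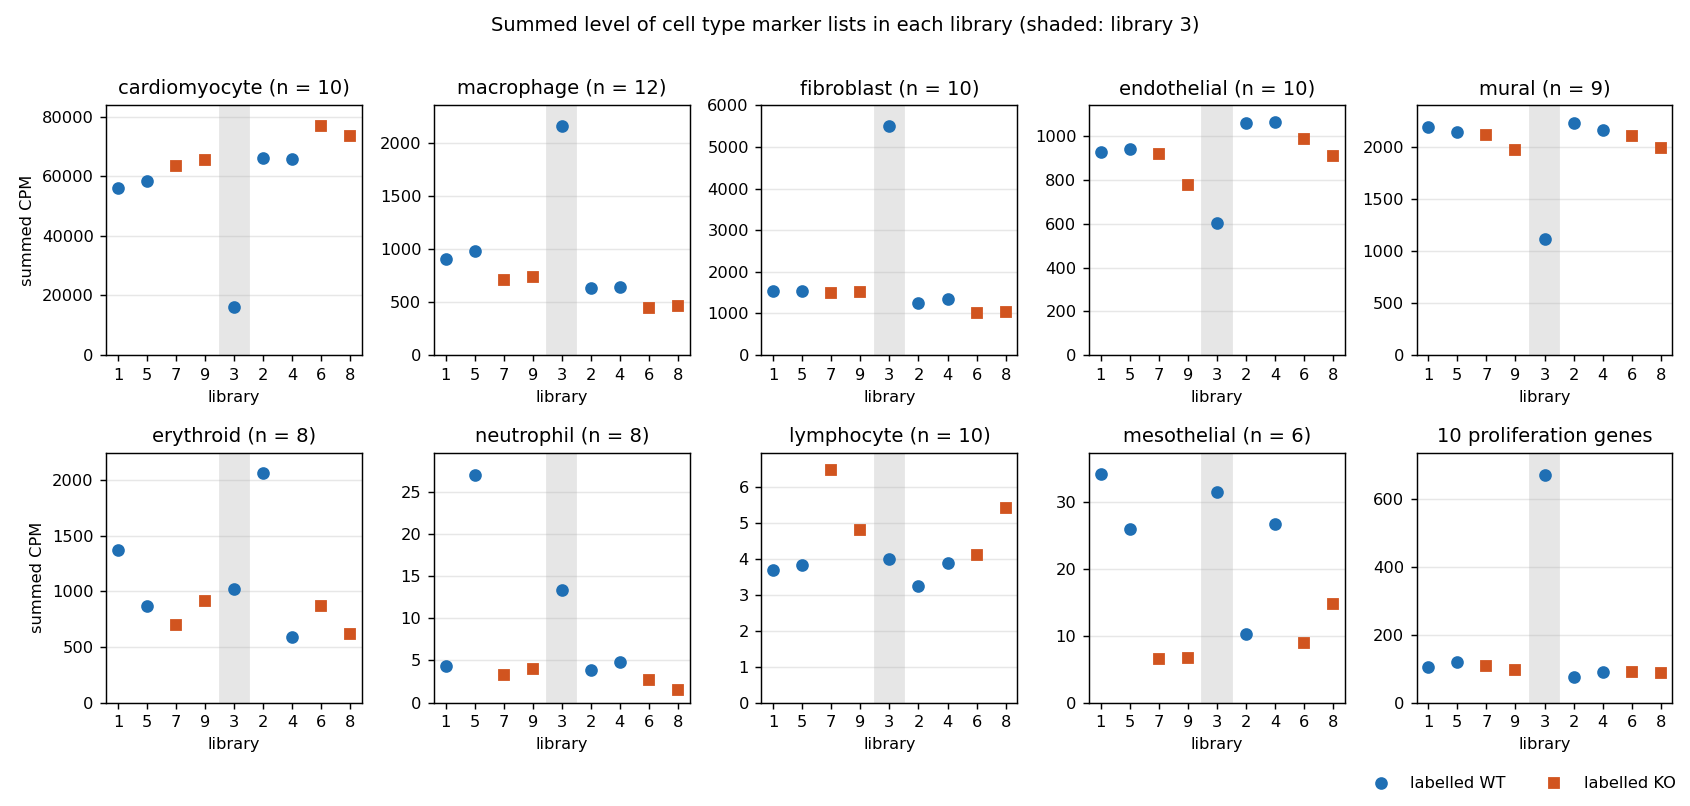
Summed CPM of each cell type marker list in each library on a linear axis from 0, with library 3 shaded and the sum of the 10 proliferation genes last, of which *Ccnd1* is a large part. Circles are labelled WT and squares labelled KO; the macrophage and fibroblast sums, like that of the proliferation genes, are highest in library 3 and higher in libraries 1, 5, 7 and 9 than in libraries 2, 4, 6 and 8, and the cardiomyocyte sum has the opposite order.

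The 10 genes together summed to 105, 120, 107 and 95.9 CPM in libraries 1, 5, 7 and 9, to 76.0, 89.5, 90.4 and 86.8 CPM in libraries 2, 4, 6 and 8, and to 671 CPM in library 3. *Ccnd1* makes up a large part of this sum and does not share its order. Without it the other 9 summed to 57.7, 67.5, 59.4 and 52.6 CPM, to 26.9, 35.9, 33.5 and 30.4 CPM, and to 596 CPM in the same order. The genes most like the 8 S, G2 and mitosis genes were found by Pearson's r with the mean of their standardized log2(CPM + 0.1) over the 8 libraries other than library 3. They were *Rgs19*, a regulator of G protein signalling (r = 0.984), *Tgfbi*, a matrix protein induced by TGF-beta (r = 0.980), *Knstrn*, a spindle protein (r = 0.977), *Nfkbie*, an inhibitor of NF-kB (r = 0.976), *Slc51a* (r = 0.971) and *Ccn4*, a matricellular protein (r = 0.967). *Ccn4* was at 4.76, 5.83, 5.14 and 5.08 CPM in libraries 1, 5, 7 and 9, at 2.05, 2.7, 2.63 and 3.27 CPM in libraries 2, 4, 6 and 8 and at 90.1 CPM in library 3. *Knstrn* was at 1.54, 1.92, 1.82 and 1.82 CPM, at 1.06, 1.03, 1.22 and 1.35 CPM, and at 16.1 CPM in the same order. With library 3 included, r was 0.982 or higher for 5 of the 6 and -0.52 for *Slc51a*, which was at 0.189 CPM in library 3. The r of *Slc51a* over the other 8 libraries rests on few reads, 9 to 26 in each. As the 6 highest of all genes over 8 points, these r values are a description.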

How the data were processed

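Total RNA from left ventricle was depleted of ribosomal RNA and sequenced as stranded libraries with 50-base single-end reads, and the authors deposited raw counts per Ensembl gene. Their processing notes name GRCm38, STAR 2.7.2c, featureCounts 1.6.3 and DESeq2. The strand setting and the handling of multiply aligned reads are not given in the sources used here. The study removed 1 WT sample for RNA quality without naming it, so all 9 libraries were kept. Groups for tests came from the deposited labels only. The *Vdac2* sets came from measured values and were given no mean, fold change or test.

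The deposited counts were fitted in edgeR 4.0.16 under R 4.3.3 after filterByExpr (16322 of 52636 genes), TMM, robust quasi-likelihood F-tests and Benjamini-Hochberg adjustment. A standard error is |log2 fold change| over the root of its F statistic. Symbols were matched for 52403 identifiers, and coordinates and exon lengths are from GENCODE M21. Genes were named by rule: the 10 genes, the 3 most abundant of each list, any list gene called, and the 6 most correlated genes. List genes named for lying wholly above or below between the *Vdac2* sets, for their place in library 3 or for an unadjusted p, and the sex-linked genes, were chosen after their values were seen. The members and lists were chosen with earlier results of these data known. The script was tested on simulated data. No 2 libraries agreed within sampling noise (lowest chi-square per degree of freedom 6.72). Alternatives were DESeq2 1.42.0, RLE size factors, other low-count filters, the study's own filters (log2 fold change over 0.585, mean count over 30) and each library left out.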

Additional observations from a re-analysis of the deposited data

Results flagged for a closer look

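Among the 5 libraries labelled WT, library 3 lay so far from the other 4 that the gap exceeded Dixon's 95% critical value of 0.71 for 9 of the 10 proliferation genes. Its level was 37.5 CPM for *Cdk1*, 227 CPM for *Mki67*, 167 CPM for *Top2a*, 9.09 CPM for *Ccnb1*, 20.6 CPM for *Ccnb2*, 65.9 CPM for *Ccna2*, 74.5 CPM for *Ccnd1*, 13.1 CPM for *Birc5* and 20.6 CPM for *Rrm2*. *Cdkn1a*, at 35.5 CPM in that library, did not pass the critical value, and no library labelled KO did for any of the 10. Chance marks about 1 group in 20 in this way, and the 9 genes share one library. Library 3 was highest by such a gap for 22.6% of all 16322 tested genes.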

How the results depend on the processing

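The number of genes called between the labelled groups was 9, and was 70 by DESeq2 and 0 with at least 10 counts required in every library, a requirement that only 2 of the 9 met, so most of that drop is by construction (875 of 14528 genes then had an unadjusted edgeR p under 0.05). Leaving out 1 library at a time it ran from 5 to 62, the highest without library 3. Without labelled WT library 1, 2 or 4 it was 5 each. The causes of these other differences were not tested. Of the 128 values of the 10 genes under the alternatives, 121 kept their direction, 0 passed an adjusted p under 0.05 (lowest 0.34), and 7 changed direction, all without library 3, where log2 fold changes were 0.14 for *Cdk1*, 0.13 for *Top2a*, 0.11 for *Ccnb2*, 0.069 for *Ccna2*, 0.0069 for *Ccnd1*, 0.39 for *Birc5* and 0.022 for *Rrm2*. With any other library left out, the lowest log2 fold changes were -2.54 for *Cdk1*, -2.06 for *Top2a*, -2.18 for *Ccnb2*, -2.42 for *Ccna2*, -0.17 for *Ccnd1*, -2.15 for *Birc5* and -2.08 for *Rrm2*. Without labelled KO library 9, *Ccnd1* was at -0.043, against -0.12 with all libraries. The low-count requirement left out *Ccnb1* and *Birc5*, which had fewer than 10 reads in some libraries. No gene of the 5 cell cycle and p53 lists was called by DESeq2, with RLE size factors or with any library left out. The marker lists were run without library 3 and under no other alternative for the labels. Without overlap between the *Vdac2* sets were the same 5 of the 10 genes under both other scalings. Joining library 3 to the low-*Vdac2* libraries could not change that count, since library 3 is highest for all 10. Of the 136 list genes tested, 48 did not overlap, beside 12.1% of all tested genes, and 44 to 53 under these settings, which were added for the lists after seeing the data. The smallest difference that 4 or 5 libraries a group can show was not computed.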
